A study of Homo sapiens with 12 samples.

Results

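The aldehyde dehydrogenases described here were 10 genes named by symbol, ALDH1A1, ALDH1A2, ALDH1A3, ALDH1B1, ALDH2, ALDH3A1, ALDH3A2, ALDH7A1, ALDH9A1 and ALDH18A1, among 56832 symbols with counts. All 10 were found by their symbols in every library. RNA sequencing was done on SW1736, an established cell line of anaplastic thyroid cancer, an aggressive and poorly differentiated thyroid tumour. The 4 groups compared were cells with the empty lentiviral vector pCDH-EV (EV) or with pCDH-TRB, which makes them express thyroid hormone receptor beta stably (TRB), each given 10 nM triiodothyronine (T3) or its NaOH vehicle for 24 h. Before that, all groups, the controls included, spent 24 h without hormone in phenol-red free medium with charcoal-stripped serum. Each group had 3 libraries. Nothing in the labels says whether they came from separate cultures or transductions, so p-values measure the spread between these libraries, which may be technical. One cell line with 1 receptor vector was studied, and the promoter driving the receptor is not given in the sources used here.

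Aldehyde dehydrogenases oxidise reactive aldehydes to carboxylic acids with NAD or NADP as the cofactor. The members differ in substrate. ALDH1A enzymes make retinoic acid, the ligand of the retinoic acid receptors, and mitochondrial ALDH2 and ALDH1B1 clear acetaldehyde. ALDH3 enzymes clear medium and long chain aldehydes from lipids, and ALDH7A1 and ALDH9A1 act in lysine and carnitine metabolism. ALDH18A1 is an exception: it acts in proline synthesis, where it reduces glutamate rather than oxidising an aldehyde. High aldehyde dehydrogenase activity is widely used to mark stem-like cells of normal tissues and tumours, and ALDH1A1 and ALDH1A3 are the isoforms most often linked to it. T3 acts through nuclear receptors, encoded by THRA and THRB, that bind DNA and change transcription of their target genes.

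ALDH1A3 and ALDH1A1 make the same product, and under T3 ALDH1A3 was higher in TRB than in EV cells while ALDH1A1 was lower in all but 1 library, so the bases before their start sites are shown together. Both windows are the 250 bases before a RefSeq gene start in GRCh38.p14, read 5′ to 3′ on the gene's strand, with CG dinucleotides in capitals. The ALDH1A3 window is chr15:100879581-100879830 on the plus strand, and the ALDH1A1 window is chr9:72953054-72953303 on the minus strand.
ALDH1A3: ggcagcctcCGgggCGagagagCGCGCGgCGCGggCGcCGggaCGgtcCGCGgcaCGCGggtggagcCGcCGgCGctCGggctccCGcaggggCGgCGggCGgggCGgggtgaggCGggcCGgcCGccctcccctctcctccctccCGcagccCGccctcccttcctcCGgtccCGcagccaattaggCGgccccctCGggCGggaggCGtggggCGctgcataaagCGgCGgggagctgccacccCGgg
ALDH1A1: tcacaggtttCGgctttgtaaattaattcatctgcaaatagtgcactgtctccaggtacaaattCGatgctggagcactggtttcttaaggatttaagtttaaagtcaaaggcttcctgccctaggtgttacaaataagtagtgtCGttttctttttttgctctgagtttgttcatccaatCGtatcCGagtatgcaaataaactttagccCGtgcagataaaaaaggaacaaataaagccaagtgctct
The ALDH1A3 window held 38 CG dinucleotides at a GC content of 82.4%, and 96.7% of the 35116 RefSeq windows of the same length held fewer. The ALDH1A1 window held 6 at a GC content of 38.4%, against a median of 11 CG dinucleotides and a GC content of 58% over all windows. RefSeq windows were matched for 8 of the 10 members, giving 10 windows, and ALDH2 and ALDH3A1 were the unmatched members. On both strands, none of the 10 windows held AGGTCA, the half-site bound by thyroid hormone and retinoic acid receptors (in 12.1% of all windows), or its direct repeat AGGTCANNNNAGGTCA, which contains AGGTCA by construction (in 0.0142%). TGACNNNGC, the core of the antioxidant response element (in 10.9%), and TATAAA (in 10.7%) were also not matched. These are matches of letters in a short window and say nothing about binding elsewhere.

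The libraries held between 3819306 and 13086717 counts in genes, the fewest in EV with T3 replicate 3. Non-unique alignments were 77.71%, 69.6% and 91.95% of the total in EV with T3, against 66.32%, 33.08% and 37.86% in EV with vehicle. The part of this unevenness in the T3 response of EV cells was not tested. One library stood apart: TRB with T3 replicate 2 had 17833 genes with a count, against at least 19030 in each of the others. Its log2 CPM minus the mean of TRB with T3 replicates 1 and 3 followed the GC content of the transcript, with a Spearman correlation of -0.89 over 12157 genes, a description across genes of 1 library. CPM here is a library's count scaled to the usual common total, after correction by trimmed mean of M-values (TMM). The authors' deposited normalized table has 11 columns of single libraries, 2 of them for TRB with T3. Over 56803 genes, each of the other libraries had its zeros at the same genes as 1 column, while for replicate 2 at most 90.4% of genes were zero in both or in neither for any column. None of the 11 columns holds it. Results on TRB with T3 are therefore given with 12 libraries and with the 11 that remain without it. The label check held. In vehicle, THRB measured 14.6 ± 1.39 CPM in EV and 80 ± 0.314 CPM in TRB cells (SD, n = 3), and the T3-responsive gene KLF9 rose from 14 ± 0.788 to 149 ± 23.5 CPM with T3 in EV cells. THRB itself rose with T3 in TRB cells, to 269 ± 69.7 CPM (3.37-fold, edgeR adjusted p = 0.000434), or 309 ± 17.8 CPM without replicate 2 (n = 2, 3.99-fold, adjusted p = 2.1e-07), and measured 14.9 ± 3.03 CPM in EV with T3. The TRB groups thus differed in receptor RNA as well as in hormone, and its part in their T3 responses was not tested. Among 8 thyroid follicular markers FOXE1 and TSHR had 0 counts in all 12 libraries, TG had 0 to 5 and SLC5A5 0 to 1, while PAX8 had a median of 4.56 CPM. The 5 epithelial markers were high, for example EPCAM with a median of 457 CPM, and the mesenchymal marker VIM had 0 to 18 counts a library. Whether this profile is usual for SW1736 was not checked here. Defining markers of leukocytes (PTPRC, CD3E and CD68) had 0 to 4 counts, although LYZ ranged from 777 to 1590 CPM, and the endothelial and fibroblast markers had 0 to 3. In bulk RNA, fewer cells of a type and less RNA per cell cannot be told apart.

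**Figure D1:**
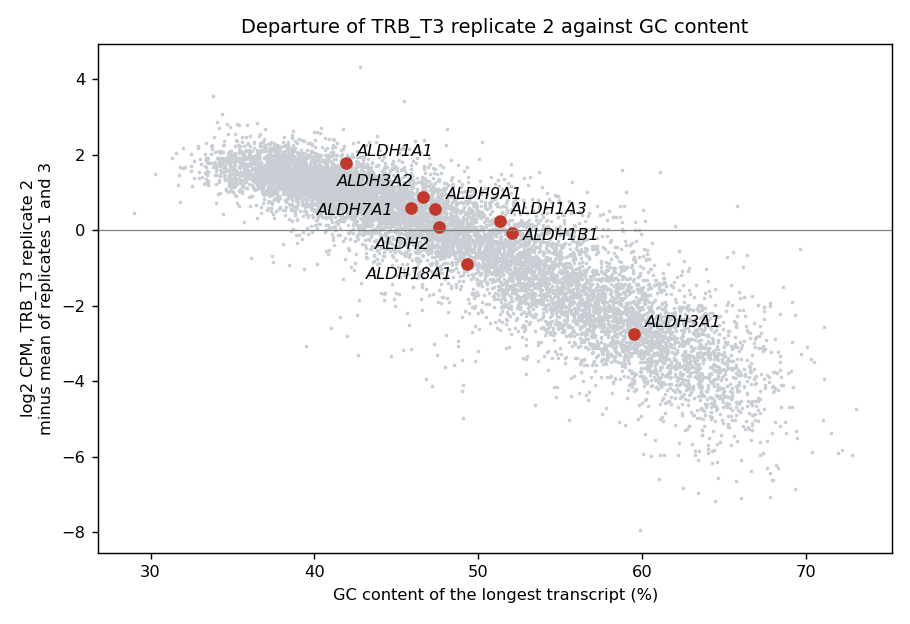
Log2 CPM of TRB with T3 replicate 2 minus the mean of replicates 1 and 3 (y axis) against the GC content of each gene's longest transcript in percent (x axis), for genes in grey and 9 members in red. ALDH1A1 lies 1.78 above the other replicates and ALDH3A1, the most GC-rich member drawn at 59.5%, lies at -2.75, while ALDH1A3 lies within 0.25 of them.

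With all 12 libraries, few members responded to T3 or differed between the vectors, and ALDH1A3 was the member that passed in the most comparisons. Of the 10 members, 9 passed the filter on low counts, and ALDH1A2 did not. With T3 in TRB cells, 3 of the 9 changed in edgeR's quasi-likelihood test at a Benjamini-Hochberg adjusted p of at most 0.05: ALDH1A3 rose, and ALDH3A1 and ALDH1B1 fell. In that comparison 14.7% of all 14431 genes tested passed, 8.54% higher and 6.2% lower. The median log2 fold change of the 9 members was -0.077, against 0.0068 over all genes, and the median size of change was 0.17 against 0.53 over all genes. With T3 in EV cells, which asks what the cells' own receptors do, 1 of the 9 changed, ALDH1A3, where 0.229% of all genes passed. In vehicle, TRB and EV cells differed in 0 of the 9 members by edgeR and in 0 by DESeq2, with 1 at an unadjusted p under 0.05 in edgeR, and 0.0208% of all genes passed. That low share depends on fitting all groups together. With only the compared groups fitted, 1563 of 14008 genes passed in edgeR, and 0 members. With T3 in both, TRB and EV cells differed in 3 of the 9, the same genes as the T3 response of TRB cells, and 6.68% of all genes passed. The comparisons share groups, so these calls are not independent of each other. The T3 response itself differed between TRB and EV cells in 1 of the 9, ALDH1A3, and in 2.59% of all genes.

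Without TRB with T3 replicate 2 more members passed, as did more genes of all kinds. T3 changed 5 of the 9 members in TRB cells (33.3% of all 14825 genes tested, 18.1% higher and 15.2% lower) and 2 in EV cells (7.33%). For T3 in TRB cells the members' median log2 fold change was then -0.28, against -0.011 over all genes. Their median size of change was 0.48 against 0.35 over all genes, the reverse of the order with 12 libraries. TRB and EV cells differed in 0 members in vehicle (0.0742%), with 2 at an unadjusted p under 0.05, and in 6 members with T3 (19.7%). The T3 response differed between the vectors in 4 members (15.2%). ALDH3A2 and ALDH18A1 joined in the T3 response of TRB cells, in opposite directions, and ALDH1A1, ALDH3A2 and ALDH18A1 joined among the differences between vectors under T3. With offsets for GC content and all 12 libraries, 1 member was higher and 5 were lower with T3 in TRB cells, where 35.6% of the 12157 genes with a GC value passed, 14.2% higher and 21.5% lower.

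**Figure D2:**
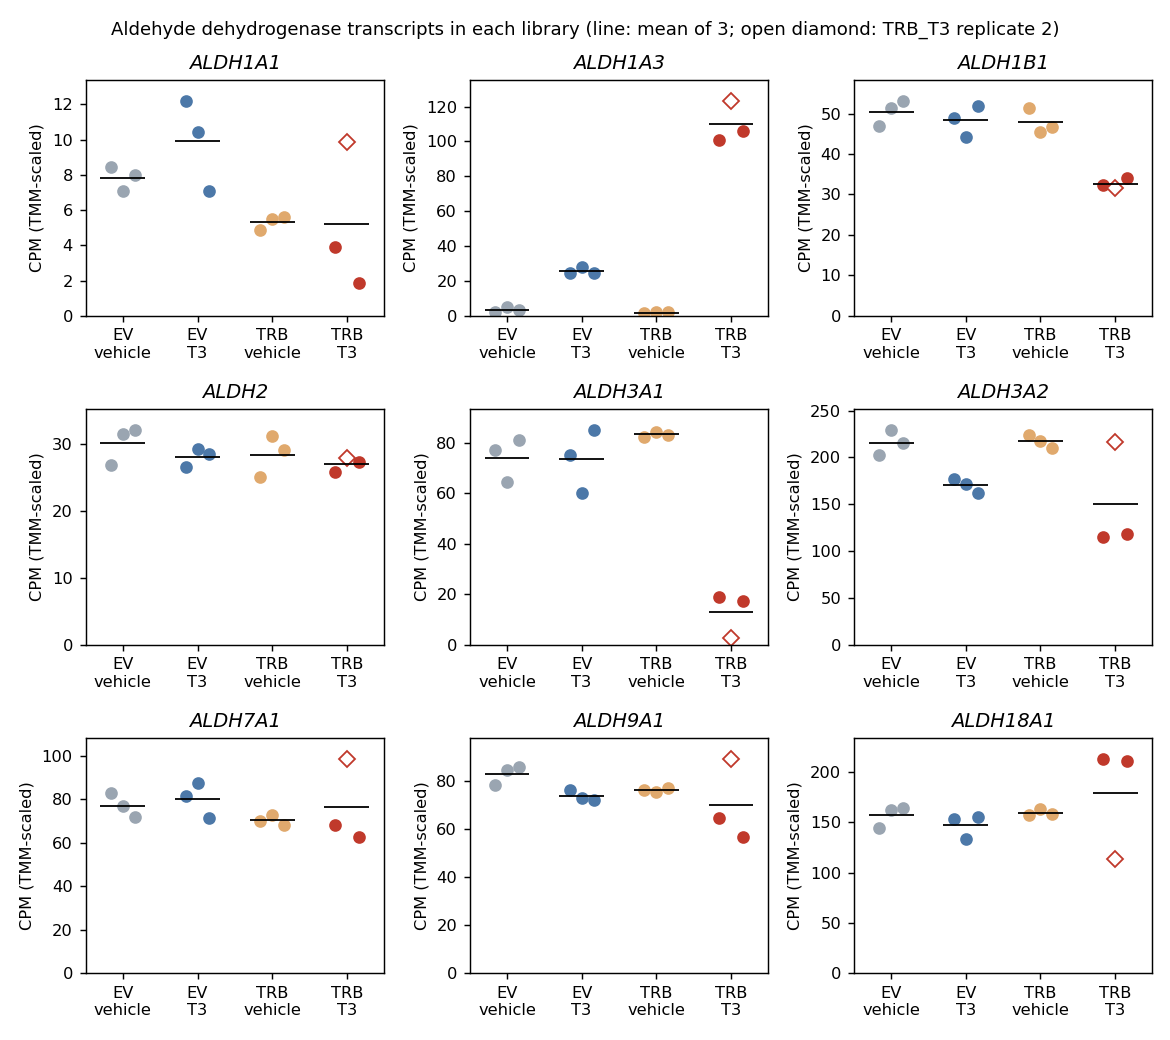
TMM-scaled CPM (y axes, from 0) of the 9 tested members in each of the 12 libraries, by group (x axes), where a line is the mean of 3 libraries and the open diamond is TRB with T3 replicate 2. ALDH1A3 lies at 100.9 to 123 CPM in TRB with T3 and at most 27.73 elsewhere, and ALDH3A1 lies at 2.513 to 18.95 CPM in TRB with T3 and at least 60.21 elsewhere.

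**Figure D3:**
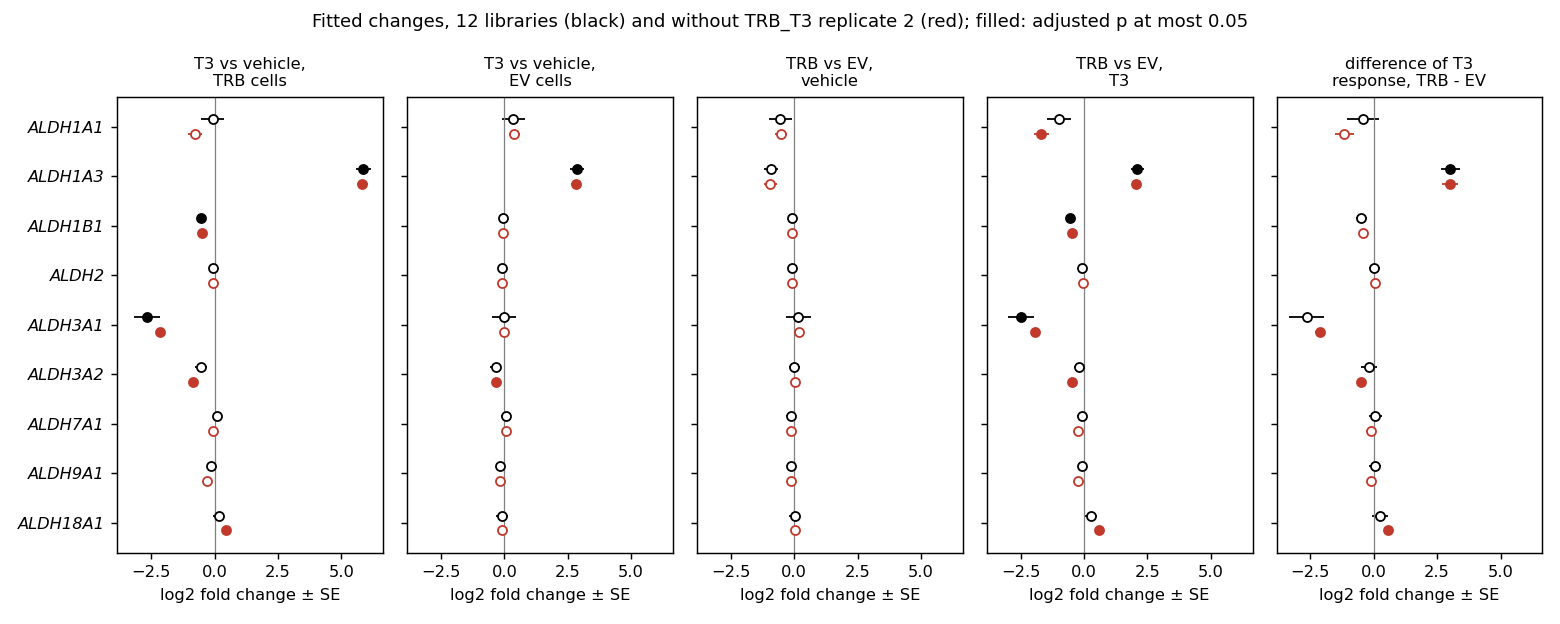
Fitted log2 fold changes with their standard errors (x axes) of the 9 tested members (y axis) in 5 comparisons, with 12 libraries in black and without TRB with T3 replicate 2 in red, filled where the adjusted p is at most 0.05. ALDH1A3 stands at 5.87 with T3 in TRB cells and 2.86 in EV cells, while ALDH2 and ALDH7A1 lie near 0 in every panel.

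ALDH1A3, the retinaldehyde dehydrogenase of the developing eye and nasal region and a frequent source of aldehyde dehydrogenase activity in tumours, gave the largest response of the family (chr15:100877714-100916626, plus strand, 15 merged exons). It measured 2.384, 4.73 and 3.21 CPM in EV with vehicle and 24.34, 27.73 and 24.75 CPM in EV with T3. In TRB cells it measured 1.319, 1.978 and 2.261 CPM with vehicle and 100.9, 123 and 106.1 CPM with T3. No library of a T3 group overlapped a vehicle group, and the TRB libraries lay below the EV libraries in vehicle and above them with T3. In raw counts TRB libraries held 13 to 27 with vehicle and 685 to 1347 with T3.

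T3 raised ALDH1A3 58.6-fold in TRB cells (log2 fold change 5.87, SE 0.30, edgeR adjusted p = 1.379e-06) and 7.24-fold in EV cells (2.86, SE 0.27, adjusted p = 0.001241). The response was 8.09-fold larger with the receptor (difference of log2 fold changes 3.02, SE 0.37, adjusted p = 0.002625). Among the 14431 genes tested it ranked 42nd for the rise in TRB cells and 20th for the rise in EV cells. Under T3 it was 4.29-fold higher in TRB than in EV cells (adjusted p = 0.0008674). In vehicle it was 1.85 ± 0.484 CPM in TRB against 3.44 ± 1.19 CPM in EV (SD, n = 3). That log2 difference of -0.92 did not pass in edgeR (unadjusted p = 0.006995, adjusted p = 0.9997). Without TRB with T3 replicate 2 the responses were 5.82 in TRB and 2.82 in EV cells, with a difference of 3.004 (adjusted p = 5.37e-05). These 4 calls held under every alternative run, 22 for each comparison of groups and 21 for the difference of responses, with the T3 response in TRB cells between 5.71 and 6.05 on the log2 scale. ALDH1A3 shares 1585 exon bases with the antisense gene AC015712.2, which is not among the counted symbols. The strand setting of the counting is not given in the sources used here, so reads of the pair cannot be told apart. Other members share exon bases too, among them ALDH2 (680 with AC002996.1) and ALDH9A1 (103 with RF00019), both on the same strand.

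ALDH1A1, the cytosolic retinaldehyde dehydrogenase, was low, and its T3 groups were uneven. It measured 8.453, 7.095 and 7.979 CPM in EV with vehicle, and 12.17, 10.44 and 7.072 CPM in EV with T3. In TRB cells it measured 4.869, 5.503 and 5.612 CPM with vehicle and 3.894, 9.873 and 1.87 CPM with T3, where 9.873 is replicate 2. All TRB libraries with vehicle lay below all EV libraries with vehicle, while the T3 groups overlapped only through replicate 2. With 12 libraries and no GC offsets, edgeR called no comparison. Without replicate 2, ALDH1A1 was 3.19-fold lower in TRB than in EV cells under T3 (log2 -1.68, SE 0.28, edgeR adjusted p = 0.001091, against 0.2072 with 12 libraries). The fall with T3 in TRB cells then had a log2 fold change of -0.76 and an adjusted p of 0.0567, and the difference of responses was -1.16 with an adjusted p of 0.0503. Neither passed. With GC offsets both passed: the fall with T3 in TRB cells was -0.73 with 12 libraries (adjusted p = 0.0295) and -0.77 with 11 (0.0165), and the difference of responses was -1.29 (0.0241) and -1.35 (0.00348). The lower level in TRB than in EV cells under T3 then passed with 12 libraries as well (-1.64, adjusted p = 0.000422) as with 11 (-1.67, 3.78e-05), and a rise with T3 in EV cells passed with 11 (0.59, adjusted p = 0.0454).

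ALDH1A2, the retinaldehyde dehydrogenase of the early embryo, was at the edge of detection. It had 0, 0 and 1 counts in EV with vehicle, 0 in each library of EV with T3 and of TRB with vehicle, and 2, 3 and 3 counts in TRB with T3. A count of 3, the upper limit that 0 counts allow for counting error, corresponds to 0.2247 to 0.7575 CPM depending on the library. No fold is given, because every group was at or under that floor.

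ALDH3A1, which clears aldehydes of lipid peroxidation and is abundant in the cornea and stomach, showed the largest fall (chr17:19737984-19748943, minus strand, 11 merged exons). It measured 77.16, 64.51 and 81.07 CPM in EV with vehicle, 75.32, 60.21 and 85.12 CPM in EV with T3, and 82.46, 84.44 and 83.34 CPM in TRB with vehicle. In TRB with T3 it measured 18.95, 2.513 and 17.45 CPM. The last group lay apart from the others in all 3 libraries, and replicate 2 lay apart within it. T3 lowered ALDH3A1 6.34-fold in TRB cells with 12 libraries (log2 fold change -2.67, SE 0.52, edgeR adjusted p = 0.00621) and 4.42-fold with 11 (-2.14, SE 0.16, adjusted p = 4.968e-07).

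In EV cells the ALDH3A1 change was -0.015 on the log2 scale (adjusted p = 0.9951). With GC offsets and 11 libraries a small fall in EV cells passed (-0.25, SE 0.07, edgeR adjusted p = 0.0224). The difference of responses was -2.65 (SE 0.71, edgeR adjusted p = 0.08508) with 12 libraries and did not pass. It passed without replicate 2 (-2.12, SE 0.20, adjusted p = 3.208e-05), in DESeq2 (-2.66, adjusted p = 0.00589) and with GC offsets (-2.09, adjusted p = 0.000192). Under T3, ALDH3A1 was 5.59-fold lower in TRB than in EV cells (adjusted p = 0.01815; 3.83-fold without TRB with T3 replicate 2, adjusted p = 3.514e-06), a call lost without EV with T3 replicate 1 (adjusted p = 0.0682) or replicate 3 (0.0731). Fitting the compared groups alone ended both calls, at 0.114 for the fall with T3 and 0.296 for the difference between vectors. An antisense gene, AC005722.3, shares 98 exon bases with ALDH3A1.

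ALDH3A2, the fatty aldehyde dehydrogenase whose loss causes Sjögren-Larsson syndrome, lies on the same chromosome (chr17:19648136-19677598, plus strand). It measured 202.6, 229 and 215.8 CPM in EV with vehicle and 176.8, 171.9 and 162.2 CPM in EV with T3. In TRB cells it measured 224.3, 217.4 and 210.5 CPM with vehicle and 115.4, 216.5 and 117.9 CPM with T3. Replicate 2, at 216.5, was the only T3 library inside the vehicle range. With 12 libraries ALDH3A2 passed in no comparison, with a log2 fold change of -0.54 for T3 in TRB cells (edgeR adjusted p = 0.1393). Without replicate 2, T3 lowered it 1.8-fold in TRB cells (-0.85, SE 0.10, adjusted p = 2.207e-05) and 1.27-fold in EV cells (-0.34, SE 0.08, adjusted p = 0.03418). The fall was then larger with the receptor, by -0.51 on the log2 scale (SE 0.13, adjusted p = 0.01755). Its level under T3 was then also lower in TRB than in EV cells (-0.49, adjusted p = 0.003154). ALDH3A2 has a transcript GC content of 46.7%, and with GC offsets and all 12 libraries the fall with T3 in TRB cells was -0.83 (adjusted p = 2.66e-05). Library totals in place of TMM factors also made that call (-0.74, adjusted p = 0.00958).

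ALDH1B1, a mitochondrial enzyme close in sequence to ALDH2, fell modestly with T3 in TRB cells (chr9:38392664-38398661, plus strand). It measured 46.81, 51.38 and 53.01 CPM in EV with vehicle, 48.98, 44.08 and 51.78 CPM in EV with T3, and 51.32, 45.49 and 46.57 CPM in TRB with vehicle. The values in TRB with T3 were 32.43, 31.59 and 34.03 CPM, below every other library and with replicate 2 beside the others. The fall with T3 in TRB cells was 1.46-fold (log2 fold change -0.55, SE 0.15, edgeR adjusted p = 0.03012), and TRB was 1.48-fold lower than EV under T3 (adjusted p = 0.04711). Without replicate 2 the adjusted p-values were 0.005256 and 0.01018. Both calls sat near the threshold: with other settings the first was lost in 11 of 22, with adjusted p up to 0.24, and the second in 15 of 22, with adjusted p up to 0.482. Leaving out 1 library ended the first in 9 of 12 fits and the second in 11 of 12. The exceptions were EV with T3 replicates 2 and 3 and TRB with T3 replicate 2 for the first, and TRB with T3 replicate 2 for the second.

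ALDH2, the main mitochondrial acetaldehyde dehydrogenase, stayed between 25.05 and 32.1 CPM in all 12 libraries. Its group means were 30.2 ± 2.85, 28.1 ± 1.33, 28.4 ± 3.13 and 27 ± 1.11 CPM (SD, n = 3) in EV cells with vehicle and T3, then TRB cells with vehicle and T3. It passed in no comparison with 12 or 11 libraries, and its log2 fold change for T3 in TRB cells was -0.073 (SE 0.16, edgeR adjusted p = 0.7661). The sister gene ALDH1B1 differed under the same contrast, but the difference between the pair was not tested.

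ALDH18A1, the enzyme that starts proline synthesis from glutamate, was the member with the opposite trend to ALDH3A2 (chr10:95605929-95656706, minus strand). It measured 144.6, 162.1 and 164.7 CPM in EV with vehicle and 153.4, 133.8 and 155.6 CPM in EV with T3. In TRB cells it measured 157.7, 162.8 and 158.6 CPM with vehicle and 212.9, 113.6 and 210.9 CPM with T3. Replicates 1 and 3 lay above, and replicate 2 below, every other library. With 12 libraries the log2 fold change for T3 in TRB cells was 0.17 (SE 0.22, edgeR adjusted p = 0.6176). Without replicate 2, T3 raised it 1.37-fold (0.46, SE 0.10, adjusted p = 0.002599), and it was 1.5-fold higher in TRB than in EV cells under T3 (adjusted p = 0.0009138). The difference of responses was 0.55 (SE 0.13, adjusted p = 0.01343). With GC offsets and 11 libraries the T3 response in TRB cells was 0.42 (adjusted p = 0.000106), and with GC offsets and 12 libraries it did not pass.

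ALDH7A1, which oxidises aminoadipic semialdehyde in lysine breakdown and is mutated in pyridoxine-dependent epilepsy, passed in no comparison with 12 or 11 libraries unless GC offsets were used. With them and 11 libraries it was lower in TRB than in EV cells under T3 (-0.22 on the log2 scale, edgeR adjusted p = 0.046). Its group means were 77.2 ± 5.41, 80.1 ± 8.14, 70.5 ± 2.2 and 76.5 ± 19.3 CPM (SD, n = 3) in the same order of groups, and 98.55 CPM of replicate 2 was the highest of all libraries. ALDH9A1, which makes trimethylaminobutyrate on the way to carnitine, had means of 82.8 ± 3.83, 73.7 ± 2.23, 76.2 ± 0.954 and 70.1 ± 16.8 CPM and passed in none without GC offsets. Without replicate 2 its T3 response in TRB cells was -0.28 (SE 0.10, edgeR adjusted p = 0.05073), and with GC offsets it passed, at -0.34 with 12 libraries (adjusted p = 0.0148) and -0.30 with 11 (adjusted p = 0.00288).

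Levels were compared between genes as CPM per kb of merged exons in the GENCODE 29 gene models. In EV with vehicle the order was ALDH18A1 at 41.7 ± 2.91 CPM per kb, ALDH3A2 at 33.4 ± 2.04, ALDH9A1 at 25 ± 1.16, ALDH3A1 at 19 ± 2.21 and ALDH1B1 at 16 ± 1.02 (SD, n = 3). The libraries of ALDH3A1 and ALDH1B1 overlapped. ALDH7A1 at 4.29, ALDH2 at 3.1 and ALDH1A1 at 2.75 CPM per kb followed, the last pair overlapping, then ALDH1A3 at 0.596 and ALDH1A2 at 0.00355. In TRB with T3, ALDH1A3 stood in the fourth place at 19.1 ± 2 CPM per kb, overlapping ALDH9A1 above it. ALDH3A1 had dropped to seventh at 3.31 ± 2.32, its libraries overlapping those of ALDH7A1 above and ALDH2 below. Without replicate 2 ALDH1A3 kept that place at 17.9 ± 0.637 and ALDH3A1 stood sixth at 4.65 ± 0.27, apart from ALDH7A1 at 3.64 ± 0.204 (n = 2). As a share of the summed level per kb of the 10 members, ALDH1A3 made up 0.407% and 3.25% in EV cells with vehicle and T3, and 0.222% and 14.3% in TRB cells. ALDH3A1 made up 13%, 13.6%, 14.7% and 2.48%. Without replicate 2 the shares in TRB with T3 were 13.5% for ALDH1A3 and 3.49% for ALDH3A1. The order depends on the gene model: by the longest transcript ALDH3A2 led in EV with vehicle at 54.9 CPM per kb, and ALDH7A1 rose to 15.5 CPM per kb, overlapping ALDH1B1.

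**Figure D4:**
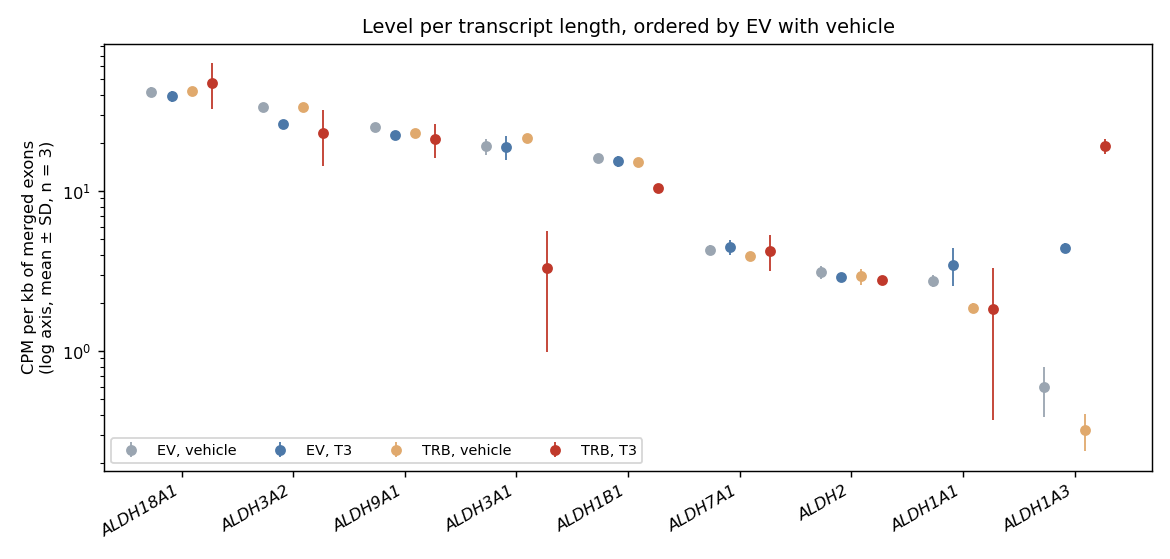
Level of 9 members as CPM per kb of merged exons (y axis, logarithmic; mean ± SD, n = 3) in the 4 groups, ordered along the x axis by EV with vehicle. ALDH1A3 climbs from 0.321 to 19.1 CPM per kb with T3 in TRB cells, and ALDH3A1 drops from 21.3 to 3.31.

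Of the 9 other human aldehyde dehydrogenase genes, 6 were tested with 12 libraries and 0 passed by edgeR for T3 in TRB cells, with 1 at an unadjusted p under 0.05, where 14.7% of all genes passed. Their median log2 fold change was -0.25 and their median size of change 0.68, against 0.53 over all genes. The gene with the low unadjusted p was ALDH3B2, at 2.23 (SE 0.77, edgeR adjusted p = 0.07863), and DESeq2 called it alone of the 6 (adjusted p = 0.0395). Without TRB with T3 replicate 2, 7 were tested. Their median log2 fold change was -0.13 and their median size of change 0.30, against 0.35 over all genes. In that fit 33.3% of all genes passed, and 2 of the 7 rose. They were ALDH3B2, 6.64-fold (adjusted p = 0.0006551), and ALDH1L1, the cytosolic folate enzyme. ALDH1L1 was not tested with 12 libraries. Without replicate 2 it passed the filter on low counts only through TRB with T3, the group where it was high. Its call is therefore no support of its own, and no fold is given. Both genes rest on few reads: ALDH1L1 had 3, 6 and 2 counts in TRB with vehicle and 70, 6 and 28 with T3, and ALDH3B2 had 7, 5 and 5, then 42, 1 and 29, where the low middle value is replicate 2.

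Genes that handle retinoids upstream and downstream of the ALDH1A step moved in both directions. Of 21 listed, 13 were tested, and with T3 in TRB cells 2 rose, 1 fell and 10 did not pass (median log2 fold change -0.78). In that comparison 14.7% of all genes passed. RDH11, a retinal reductase, rose 3.2-fold (edgeR adjusted p = 0.00637) and the carotene oxygenase BCO1 3.4-fold (adjusted p = 0.00576), both calls lost with only the compared groups (0.0763 and 0.0729), while the retinol dehydrogenase DHRS9 fell (adjusted p = 0.000635). DHRS9 had 21, 21 and 25 counts in TRB with vehicle and 2, 0 and 3 with T3, so no fold is given. BCO1 was also low in TRB cells, at 0.97 ± 0.506 CPM with vehicle and 3.42 ± 0.681 CPM with T3 (SD, n = 3). Without replicate 2, 5 rose and 6 fell (median -0.46, with 33.3% of all genes passing). Among them the retinoic acid carrier CRABP2 (1.31 on the log2 scale, adjusted p = 2.598e-06) and the retinal reductase DHRS3 (1.26, adjusted p = 1.437e-05) rose, and the retinol dehydrogenase RDH10 fell (-1.32, adjusted p = 7.405e-05). Those last 3 were named after their values were seen. RDH11 was 160 ± 88.4 CPM in TRB with T3, and 109 ± 0.597 without replicate 2 (n = 2), against 50 ± 2.7 with vehicle. Its rise on the log2 scale was 1.68 with 12 libraries and 1.17 without replicate 2 (edgeR adjusted p = 0.000124). Without replicate 2 BCO1 rose by 1.66 (adjusted p = 0.00231), and DHRS9 fell (adjusted p = 9.71e-05).

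Other aldehyde and alcohol oxidoreductases also split. Of 19 listed, 9 were tested, and T3 raised 2 and lowered 1 in TRB cells (median log2 fold change -0.19). Over all genes 14.7% passed with 12 libraries and 33.3% without replicate 2. Without replicate 2, 2 rose and 2 fell, ADH5 joining AKR1B10, and the median had the opposite sign, at 0.12. AKR1B10, an aldo-keto reductase that also reduces retinal, fell 3.07-fold (edgeR adjusted p = 5.58e-05), from 130 ± 4.63 to 42.3 ± 4.57 CPM (SD, n = 3), and by 1.66 on the log2 scale without replicate 2 (adjusted p = 1.73e-07). Its fall was larger than in EV cells (difference -1.05 on the log2 scale, adjusted p = 0.0254; -1.09 and 0.000297 without replicate 2). That call was ended by 9 alternatives, with adjusted p up to 0.226. AKR1C3 rose 2.48-fold (adjusted p = 0.000881; log2 1.47 without replicate 2, 2.45e-06), and did not pass with GC offsets (0.0645). PTGR1 rose 1.7-fold (log2 0.77, adjusted p = 0.0162; 0.65 without replicate 2, 0.00115). Its call was lost with GC offsets (log2 0.36, adjusted p = 0.187), with only the compared groups (0.153), with no count filter (0.114) and without TRB with vehicle replicate 2 (0.063) or 3 (0.0558). AKR1C3 shares near-identical stretches with AKR1C1 and AKR1C2, so its counts are uncertain.

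NRF2 targets, the antioxidant genes often counted together with ALDH3A1, did not move as a block. Of 20 listed, 19 were tested, and with T3 in TRB cells 4 rose, 2 fell and 13 did not pass (median log2 fold change -0.12). In that comparison 14.7% of all genes passed. Heme oxygenase HMOX1 rose 5.28-fold (edgeR adjusted p = 0.019) and the efflux pump ABCC2 5.25-fold (adjusted p = 0.00135), while the cystine transporter SLC7A11 fell 6.03-fold (adjusted p = 0.00204). ABCC2 rests on few reads, at 0.912 ± 0.422 CPM with vehicle and 4.81 ± 0.823 CPM with T3 in TRB cells (SD, n = 3). HMOX1 ranged from 3.77 to 34.65 CPM in TRB with T3, and its call was lost without TRB with vehicle replicate 1, 2 or 3 (adjusted p = 0.0653, 0.0739 and 0.0872) or TRB with T3 replicate 1 (0.0505), or with only the compared groups (0.18). Without replicate 2, 7 rose and 5 fell, and the median was 0.086, where 33.3% of all genes passed. HMOX1, ABCC2 and SLC7A11 then changed by 2.94, 2.38 and -3.14 on the log2 scale (adjusted p = 2.38e-08, 0.000144 and 6.85e-06).

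Beside ALDH18A1, genes of proline and glutamate metabolism were counted. Of 12 listed, 11 were tested, and with T3 in TRB cells 2 rose and 1 fell (median log2 fold change -0.059), or 3 and 2 without replicate 2 (median -0.14). Over all genes 14.7% passed with 12 libraries and 33.3% without replicate 2. The collagen prolyl hydroxylase P4HA1 rose 3.85-fold (edgeR adjusted p = 0.00204), from 49.5 ± 5.45 to 191 ± 96.9 CPM (SD, n = 3), or to 135 ± 9.28 without replicate 2. Its log2 fold change was 1.94 with 12 libraries and 1.49 without replicate 2 (adjusted p = 1.4e-05). P4HA2 rose 1.99-fold (adjusted p = 0.0255; log2 1.25 without replicate 2, 9.84e-05). That call was lost when any TRB library except T3 replicate 2 was left out (adjusted p 0.0657 to 0.109). It was also lost with only the compared groups (0.166), library totals in place of TMM factors (0.084) or no count filter (0.07). The proline dehydrogenase PRODH fell 9.01-fold (adjusted p = 0.00355), with a log2 fold change of -2.78 without replicate 2 (adjusted p = 0.000313). Its fall rests on few reads, from 32, 49 and 45 counts to 5, 0 and 6. The prolyl hydroxylases modify proline already in collagen and neither make nor break it down. PYCR1, which completes proline synthesis, had a log2 fold change of -1.58 that did not pass (adjusted p = 0.1282), and passed without replicate 2 at -1.01 (adjusted p = 0.001532). That is the opposite direction to ALDH18A1 in the same 11 libraries, and PYCR1 was named after its values were seen.

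Among 14 listed genes of lysine, carnitine, choline and fatty aldehyde metabolism, 11 were tested, and with T3 in TRB cells 2 rose and 1 fell (median log2 fold change 0.11). Without replicate 2, AASS, FAAH and SLC22A5 rose and CHDH fell (median 0.23). Over all genes 14.7% passed with 12 libraries and 33.3% without replicate 2. The lysine breakdown enzyme AASS, which acts ahead of ALDH7A1, rose 3.39-fold (edgeR adjusted p = 0.0107), from 0.784 ± 0.384 to 2.67 ± 0.765 CPM (SD, n = 3), and by 1.99 on the log2 scale without replicate 2 (adjusted p = 0.000795). The carnitine transporter SLC22A5 rose 1.86-fold (adjusted p = 0.00545; log2 1.05 without replicate 2, 4.07e-05). Fitting the compared groups alone ended both calls (0.0997 and 0.119), and no count filter ended that of SLC22A5 (0.0691). The choline dehydrogenase CHDH fell 2.98-fold (adjusted p = 0.000297), from 56.9 ± 1.96 to 19 ± 3.65 CPM, and by 1.39 on the log2 scale without replicate 2 (adjusted p = 5.75e-06). It fell more than in EV cells (difference -1.58 on the log2 scale, adjusted p = 0.0113; -1.39 and 0.000284 without replicate 2). That call was lost without EV with vehicle replicate 2 (0.0591) or TRB with vehicle replicate 1 (0.0513) and with no count filter (0.0608).

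With T3 in EV cells, 0 genes of these 6 lists passed in edgeR with 12 libraries, with 4 at an unadjusted p under 0.05. Over all genes 0.229% passed with 12 libraries and 7.33% without TRB with T3 replicate 2. DESeq2 called AKR1B10, AKR1C3 and SLC7A11. Without TRB with T3 replicate 2 the genes that rose with T3 in EV cells were CRABP2 of the retinoid genes, AKR1C3, HMOX1 and ABCC1 of the oxidoreductases and NRF2 targets, and SPHK2 and FAAH of the last list. Among those that fell were RDH10, RDH14, AKR1B10, SLC7A11 and GCLC.

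**Figure D5:**
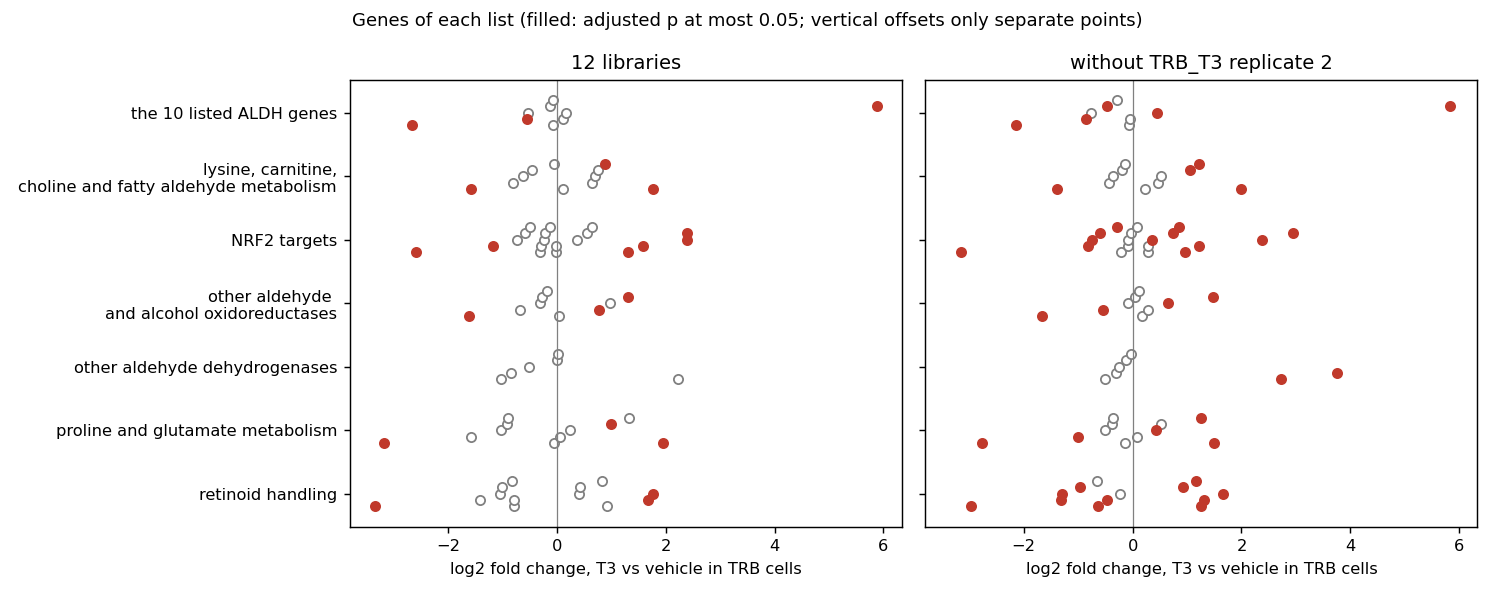
Log2 fold change for T3 against vehicle in TRB cells (x axes) of each tested gene, by list (y axis), with 12 libraries (left) and without TRB with T3 replicate 2 (right), filled where the adjusted p is at most 0.05. Each list holds both higher and lower genes, and ALDH1A3 at 5.87 (left) and 5.82 (right) lies farthest from 0.

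Over the 11 libraries without TRB with T3 replicate 2, 10279 genes whose log2 CPM averaged 3 or more were compared with ALDH1A3 by Pearson correlation of log2 CPM. The highest values were those of UGT1A10 (r = 0.992), PAPSS2 (0.992) and FN1 (0.991), and the lowest those of ATF4 (-0.994), PLEK2 (-0.984) and ADM2 (-0.983). The libraries form 4 groups, so a correlation here mainly compares the order of group levels. FN1, the extracellular matrix protein fibronectin, had mean levels of 14.7 and 70.6 CPM in EV cells with vehicle and T3, and of 9.55 and 288 CPM in TRB cells. The stress-response transcription factor ATF4 had 281 and 210 CPM in EV cells and 291 and 171 CPM in TRB cells. UGT1A10 shares its last exons with the other UGT1A genes, so its counts are uncertain. FN1 was also 1 of 3 listed dedifferentiation or mesenchymal markers, whose summed level was 152 to 305 CPM in TRB with T3, 66.7 to 75 in EV with T3 and at most 18.3 in the vehicle groups. That sum is nearly all FN1, at 146.5 to 302.5 CPM in TRB with T3. The other markers were low and moved in opposite directions with T3 in TRB cells. ZEB1 went from 0.333 ± 0.0739 to 3.44 ± 1.23 CPM and VIM from 0.969 ± 0.467 to 0.442 ± 0.564 CPM (SD, n = 3). The part of FN1 in the ALDH1A3 result was not tested.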

How the data were processed

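The deposited values are raw counts for 12 libraries of total RNA, 1 row a gene symbol. CASAVA 1.7, STAR 2.7, HTSeq 0.10 and DESeq2 are named in the submitters' processing notes, with no role given, and the build is hg38. The annotation, counting options and strand setting are not given in the sources used here. Closing lines that name no gene entered neither library sizes nor tests. Their shares of a file were 19.03% to 91.95% for non-unique alignments, 2.14% to 24.37% for reads in no gene and 0.258% to 1.81% for ambiguous ones. A further deposited table holds values scaled by the authors and rounded to whole numbers, by a method not stated, and so treated as a score. It was used only to see which libraries it holds, by whether each gene is 0 in both.

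The model was fitted with edgeR 4.0.16 in R 4.3.3: filterByExpr (minimum count 10, minimum total 15), TMM factors, and a quasi-likelihood model with 1 coefficient for each of 4 groups. The 5 contrasts were tested two-sided, with Benjamini-Hochberg adjustment over all genes tested at 0.05. Standard errors were derived from the log2 fold change and its F statistic. Floors of 3 counts cover counting error only. The procedure was tested on simulated data. Within each group, no pair of libraries agreed within sampling noise (chi-square per degree of freedom 3.07 to 251). The pairs of EV with T3 gave 11.01 to 41.09, against 6.504 to 9.862 in EV with vehicle.

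Alternatives were each library left out, DESeq2 1.42.0, upper-quartile, RLE or no factors, no count filter, only the compared groups, the replicate number as a block, GC offsets with 12 and 11 libraries, and a prior count of 2. GC content and lengths came from GENCODE 29, on the same assembly as hg38. Promoters came from RefSeq for GRCh38.p14.

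The members and the gene lists were chosen with earlier results of these data known. All 10 members are named, with values in every library where one passes with 12 or 11 libraries. From each list and comparison, up to 4 passing genes with the largest changes could be named, and 3 highest and 3 lowest correlations for ALDH1A3. Those printed are of the T3 response in TRB cells, of differences from EV cells and, without TRB with T3 replicate 2, of the T3 response in EV cells. Some listed genes are not reported here.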

Additional observations from a re-analysis of the deposited data

Results flagged for a closer look

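The T3 response differed between TRB and EV cells, by the test of the difference itself, in these members. For ALDH1A3 the difference of log2 fold changes, TRB minus EV, was 3.016 with 12 libraries and 3.004 without TRB with T3 replicate 2. For ALDH3A1 it was -2.123, for ALDH3A2 -0.510 and for ALDH18A1 0.549, each without that replicate. With all 12 libraries the last 3 did not pass in edgeR, at adjusted p = 0.08508, 0.6958 and 0.5983, and their spread within TRB with T3 came from replicate 2, which lay 2.75 below (ALDH3A1), 0.89 above (ALDH3A2) and 0.90 below (ALDH18A1) the mean of the other replicates on the log2 scale.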

How the results depend on the processing

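Members that passed numbered 3 for T3 in TRB cells, and 1 with only the compared groups, 6 with GC offsets, 7 with GC offsets and 11 libraries, and 2 to 5 when 1 library was left out (5 without TRB with T3 replicate 2). For T3 in EV cells they numbered 1, 4 with GC offsets and 11 libraries, and 1 to 2 with 1 library left out. For TRB against EV under T3 they numbered 3, 1 with only the compared groups, 5 with GC offsets, 7 with GC offsets and 11 libraries, and 1 to 6 with 1 library left out (1 without EV with T3 replicate 1 or 3). For the difference of responses they numbered 1, 2 with DESeq2, 4 with GC offsets, 6 with GC offsets and 11 libraries, and 1 to 4 with 1 library left out. For TRB against EV in vehicle they numbered 0 under all alternatives run. Where no value or the alternative's own construction shows it, the cause was not tested.

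Of 981 member values under alternatives, 916 kept their side of the threshold, 35 newly passed and 30 no longer passed. Signs changed 56 times, in 17 of 45 values, none of them called, with sizes up to 0.168 originally and 0.321 in the alternative.

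Over all genes, calls numbered 2128 for T3 in TRB cells (634 with compared groups only, 4333 with GC offsets, of which 1723 were higher, against 1233 higher of 2128, and 6763 with GC offsets and 11 libraries). For T3 in EV cells they numbered 33 (172 with DESeq2, 19 with no count filter, 200 with compared groups only, 18 with the replicate block, 264 and 2179 with GC offsets and 12 or 11 libraries). For TRB against EV in vehicle they numbered 3 (8, 2, 1563, 2, 0 and 130 in the same order). For TRB against EV under T3 they numbered 964 (1905 with DESeq2, 32 with compared groups only, 2448 and 4914 with GC offsets). For the difference of responses they numbered 374 (1022 with DESeq2, 238 with no count filter, 1385 and 4174 with GC offsets). With GC offsets and 12 libraries, 1116 of the 2448 and 724 of the 1385 were higher, against 596 of 964 and 255 of 374. With 1 library left out, calls in the 5 comparisons ranged from 1256 to 4938, 10 to 1087, 1 to 11, 414 to 2918 and 136 to 2259, the highest always without TRB with T3 replicate 2.

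Same-numbered libraries of different groups had correlations of their deviations between -0.19 and 0.728 over 18 pairs, 12 of them over 0.1. The highest joined EV with T3 replicate 2 and TRB with T3 replicate 2, and pairs of different numbers reached 0.632. Of 12 libraries, 7 correlated best with their own number. These values do not settle whether the numbers mark pairs, so the main model had no block and the block was an alternative. With the replicate block, members that passed numbered 3, 1, 0, 2 and 1 in the 5 comparisons, and the call lost was that of ALDH1B1 for TRB against EV under T3 (adjusted p = 0.0593). Depth limits ALDH1A2, at 3 counts or fewer, and ALDH1A1, at 15 to 99 counts a library.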
